A study of Mus musculus with 4 samples.

Results

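Sox and Fox transcription factor genes were examined for binding of Dzip3 and Ring1B and for ubiquitylated histone H2A (ubH2A) in mouse embryonic stem (mES) cells. The set holds 44 genes, 17 Sox and 27 Fox, taken by name, and is set beside the 22380 protein-coding genes of the annotation. It does not hold every Sox or Fox gene, so counts by group are of genes in the set. For each gene, the peaks of 4 deposited lists were taken whose nearest edge lay within 10 kb of an annotated transcription start site (TSS) of that gene. The genes were divided into 34 lineage genes, which are known for their roles in differentiating tissues, and 10 genes known from general knowledge to be active in mES cells. Neither rule uses a measured value, but the genes, lists and rules were chosen with earlier results of these data known. Since the libraries hold no expression values, the identity of the cells and the state of each gene were not checked here.

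The data come from E14 mES cells of strain 129/Ola at passage 3 to 5, without any knockdown or differentiation. The cells were grown on 0.5% gelatin in medium with PD0325901 at 1 μM, an inhibitor of MEK, CHIR99021 at 3 μM, an inhibitor of GSK3, and LIF at 1000 U/ml, and were fixed in 1% formaldehyde. Chromatin was precipitated with rabbit antibodies against Dzip3, Ring1B or ubH2A, and input DNA gives the level without precipitation. There is 1 library for each of the 4, so no value has a replicate, no test was made between libraries or gene groups, and the intervals given cover counting error only. The library sizes implied by the lists lie between 48.3 M and 67.0 M reads, and the lists hold between 6482 and 10119 peaks.

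Sox proteins bind DNA through an HMG box and Fox proteins through a forkhead (winged helix) domain, and members of both families direct the formation of neural, mesodermal and endodermal tissues. Ring1B is the catalytic subunit of polycomb repressive complex 1 and places ubiquitin on histone H2A, a mark found at silent developmental genes that often have CpG-rich promoters. Dzip3 is another ubiquitin ligase with activity on histone H2A.

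Ring1B peaks were found at most of these genes, and peaks of the other 3 lists were nearly absent. A Ring1B peak lay within 10 kb of a TSS in 28 of 44 genes, which is 63.6% (95% Wilson interval 48.9% to 76.2%), beside 14.2% of all protein-coding genes. A Dzip3 peak was listed at 2 of 44 genes (4.55%, interval 1.26% to 15.1%), beside 6.37% of all protein-coding genes. No ubH2A peak was listed at the 39 genes for which that list could be analysed, which allows a share of up to 8.97% (upper Wilson limit), beside 6.79% of all protein-coding genes. An input peak was listed at 1 of 37 genes (2.70%), beside 3.01%. Thus the share with Ring1B was above the background of all genes, with an interval that does not reach it, whereas the intervals for the other 3 lists contain it. A gene without a listed peak is below what a list can hold and is not shown to be unbound. The lowest peak in the Ring1B list has a height of 31 extended reads, or 0.599 RPM (the height per M reads of the library), and the lowest in the Dzip3 list has 33, or 0.619 RPM.

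The Ring1B peak with the most Ring1B reads in each family, called its strongest peak here as for each gene below, lay over coding sequence. For Sox genes it was a 2106 bp peak at Sox17, a regulator of endoderm and blood vessels, and for Fox genes a 2349 bp peak at Foxb1, a gene of the developing hypothalamus. The central 200 bases of the Foxb1 peak, chr9:69607565-69607764 in build NCBIM37 (mm9), are shown to give the base composition of the peak with the most Ring1B reads, 5′ to 3′ on the strand of the gene (minus), with each CpG in capitals.
Foxb1: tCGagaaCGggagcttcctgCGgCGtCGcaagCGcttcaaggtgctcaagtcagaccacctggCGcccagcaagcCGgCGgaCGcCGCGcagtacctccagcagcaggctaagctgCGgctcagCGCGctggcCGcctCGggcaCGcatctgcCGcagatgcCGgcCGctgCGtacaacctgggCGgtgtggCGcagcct
The Foxb1 stretch holds 24 CpG and is 70% G or C, with an observed over expected CpG of 0.980.

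At the Sox17 peak, 933 Ring1B reads were counted, beside 98 Dzip3, 116 ubH2A and 12 input reads. At the Foxb1 peak, 1615 Ring1B reads were counted, beside 112 Dzip3, 118 ubH2A and 26 input reads. In both peaks the Ring1B library stood far above the other 3, and the input library was lowest. Both were called from the Ring1B reads, so the high Ring1B counts are a description. By height the order was another, with 204 extended reads at a Sox9 peak, 156 at the Foxb1 peak and 92 at the Sox17 peak. After division by library size, Ring1B reached 18.0 reads per M reads of the library (reads per M) at Sox17 and 31.2 at Foxb1.

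Sox and Fox genes carried Ring1B at similar shares. The share was 11 of 17 Sox genes (64.7%, interval 41.3% to 82.7%) and 17 of 27 Fox genes (63.0%, interval 44.2% to 78.5%), and the intervals overlap over nearly their whole width. The state assigned to the gene in mES cells separated them more clearly. Among lineage genes 27 of 34 had a Ring1B peak (79.4%, interval 63.2% to 89.7%), and among active genes 1 of 10 had one (10.0%, interval 1.79% to 40.4%). The 2 intervals do not overlap, but they take genes as independent, and the lists were drawn with earlier results of these data known. The order held in each family, with 11 of 14 lineage and 0 of 3 active Sox genes, and 16 of 20 lineage and 1 of 7 active Fox genes. The assignment to the active list rests on general knowledge of mES cells and not on expression values, and other ways of drawing the list are given with the dependence on processing.

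**Figure D1:**
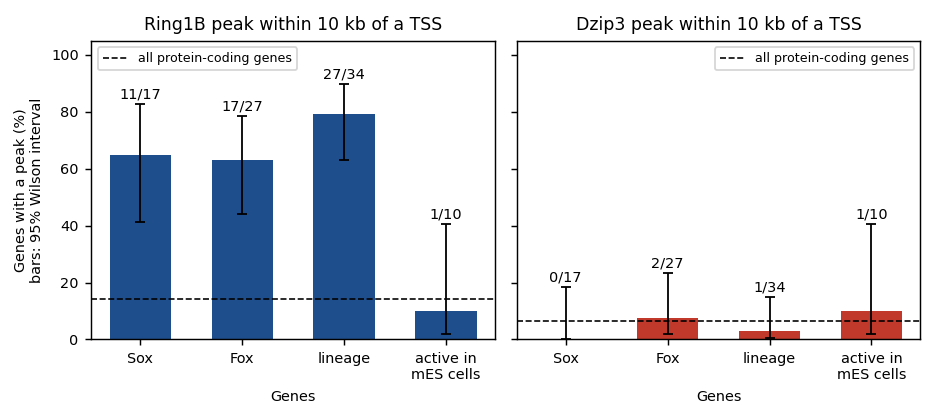
Percentage of genes with a Ring1B peak (left) and a Dzip3 peak (right) within 10 kb of a TSS, for Sox, Fox, lineage and active genes, with 95% Wilson intervals and counts above the bars. The dashed lines give the share among all protein-coding genes, 14.2% for Ring1B and 6.37% for Dzip3, and the lineage bar for Ring1B stands at 79.4% against 10.0% for active genes.

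Among the Sox groups, Ring1B was found at both SoxB1 genes of the set, Sox1 and Sox3, which act in neural progenitors. It was also found at all 3 SoxE genes, Sox8, Sox9 and Sox10, which act in the neural crest. In SoxC it was found at Sox4 and Sox11, which promote neuronal differentiation, but was not listed at Sox12. In SoxF it was found at Sox17 and Sox18, which act in blood and lymph vessels, but was not listed at Sox7. Of SoxB2 it was found at Sox14 alone, and of SoxD at Sox6 alone, a partner of Sox9 in cartilage. After Sox17, the most Ring1B reads in 1 peak were counted at Sox1, with 808 Ring1B, 69 Dzip3, 62 ubH2A and 18 input reads. This peak lay 8967 bp upstream of the Sox1 TSS, which was placed from its RefSeq promoter sequence, and over an exon of the neighbouring gene Gm5607, and the Sox1 peaks closer to its TSS had at most 199 Ring1B reads. Sox9, a regulator of cartilage and testis, had 773 Ring1B, 23 Dzip3, 35 ubH2A and 4 input reads in a 1060 bp peak that spans its TSS. With 14.1 Ring1B reads per M per kb this was the densest of the strongest Sox peaks. Sox11 had 590 Ring1B, 78 Dzip3, 81 ubH2A and 3 input reads over its exon. At Sox14 the strongest of 8 peaks had 497 Ring1B, 33 Dzip3, 98 ubH2A and 18 input reads. The other 6 Sox genes with Ring1B fell into a stronger and a weaker set. Sox18, Sox4 and Sox6 had 464, 441 and 398 Ring1B reads in their strongest peak, and Sox10, Sox3 and Sox8 had 104, 85 and 78.

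Counts for the Fox groups are likewise of genes in the set. Ring1B was found at both FoxC genes, at all 3 genes of FoxB and FoxE and at all 5 genes of FoxF, FoxL and FoxQ. It was also found at 3 of 4 FoxD genes, at 2 of 3 FoxA genes and at 2 of 3 FoxP genes. It was listed at 0 of 5 genes of FoxH, FoxI, FoxJ, FoxK and FoxN and at 0 of 2 FoxO genes. After Foxb1, the most reads were counted at Foxd4, with 1368 Ring1B, 101 Dzip3, 94 ubH2A and 8 input reads. Foxl2, a gene of ovary development, had 1275 Ring1B, 61 Dzip3, 101 ubH2A and 8 input reads. Foxf2, a gene of gut mesenchyme, had 1248 Ring1B, 102 Dzip3, 100 ubH2A and 20 input reads. The 4 strongest peaks were between 1692 and 2349 bp long and spanned the TSS, except that of Foxd4, which began 225 bp after it. Foxc2, a gene of lymph vessels and mesoderm, had 1072 Ring1B, 72 Dzip3, 66 ubH2A and 21 input reads. The Foxc2 peak also lies 9634 bp from the TSS of Foxl1, a gene of gut mesenchyme, and was counted for both. Foxl1 has a peak of its own that spans its TSS, with 553 Ring1B, 54 Dzip3, 80 ubH2A and 2 input reads. The peaks at both TSSs were longer than 1 kb. Foxc1 (eye and mesoderm), Foxd2, Foxe1 (thyroid) and Foxa2 (endoderm and floor plate) followed with 1038, 1015, 1015 and 964 Ring1B reads. Foxf1 (lung and gut mesenchyme) had 792, Foxd1 (kidney stroma) 504, Foxe3 (lens) 398, Foxa1 (endoderm) 234, Foxq1 221 and Foxp2 (brain) 138. The lowest of all was Foxp1, with 67 Ring1B, 7 Dzip3, 14 ubH2A and 2 input reads in a 222 bp peak 12 bp from an internal TSS.

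**Figure D2:**
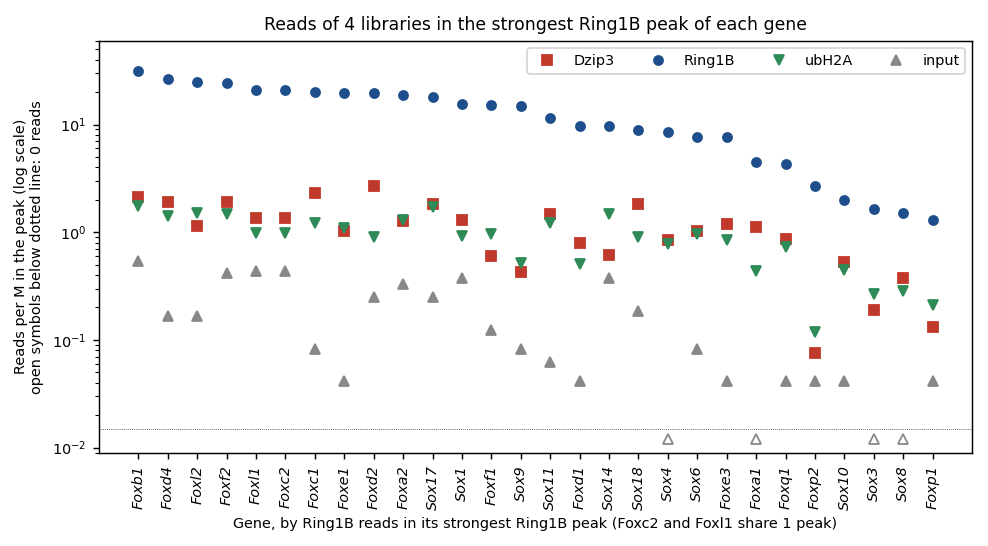
Reads per M (log axis) of the Dzip3, Ring1B, ubH2A and input libraries in the strongest Ring1B peak of the 28 genes that have one, in order of Ring1B reads. Ring1B falls from 31.2 at Foxb1 to 1.29 at Foxp1 and is the highest of the 4 libraries in every gene, and open symbols mark genes with 0 input reads in that peak. The peaks were called from the Ring1B reads, so the place of Ring1B above the others is a description.

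The Fox genes with Ring1B had more Ring1B reads than the Sox genes with Ring1B. The median over genes of the strongest peak was 19.6 reads per M in 17 Fox genes (1.29 to 31.2) and 8.96 in 11 Sox genes (1.51 to 18.0). Per kb of peak the medians were 10.2 and 7.11, so a part of the difference in reads went with longer peaks in Fox genes. The Ring1B peaks of a gene together covered a median of 2693 bp in Fox genes and 1739 bp in Sox genes. The ranges of the 2 families overlapped on each of these measures. The comparison with other genes used the 3048 other protein-coding genes with a Ring1B peak that overlaps no input peak, as was true of all Ring1B peaks of the set. The median strongest such peak of those genes had 1.84 reads per M and their median covered length was 360 bp, whereas the 26 genes of the set typed as protein-coding by the annotation that had a Ring1B peak reached 10.6 reads per M and 2391 bp. When protein-coding genes were ordered by their strongest Ring1B peak that overlaps no input peak, the first 100 held 8 genes of the set, all Fox, and the first 200 held 12, of which 10 were Fox and 2 Sox.

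In total 99 different Ring1B peaks lay within 10 kb of these genes, 43 at Sox and 56 at Fox genes. A gene with Ring1B had a median of 3 peaks, and the most, 8, were found at Sox14 and Foxf1. The peaks were longer than those at other genes. Their median length was 395 bp and 24 of 99 (24.2%) were 1 kb or longer, beside a median of 325 bp and 7.38% of 4808 Ring1B peaks at other protein-coding genes. Their distance from the TSS was alike, with a median of 1064 bp beside 1065 bp, and 48.5% beside 49.0% lay within 1 kb. Of the 99 peaks, 18 spanned a TSS of the gene, 27 others touched an exon of a protein-coding gene, 19 were intronic and 35 intergenic. At 26 of the 28 genes at least 1 peak lay within 1 kb of a TSS. The 2 exceptions were Foxa1, with its nearest Ring1B peak 2804 bp downstream over its own exon, and Sox1, at 1849 bp.

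**Figure D3:**
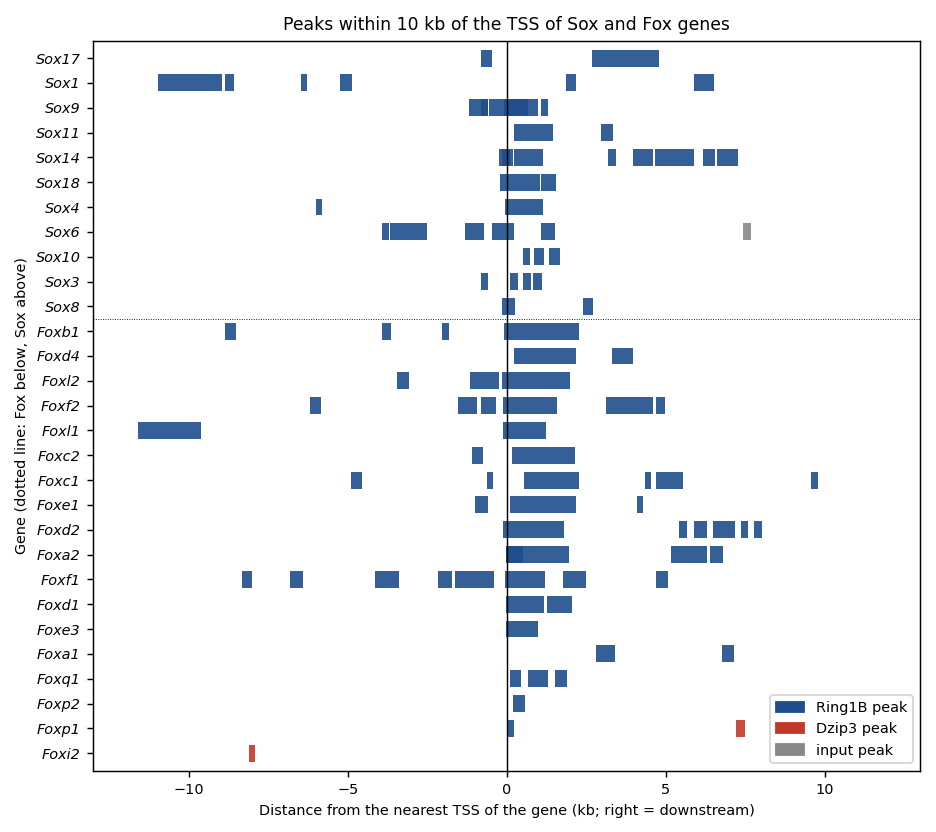
Ring1B, Dzip3 and input peaks within 10 kb of the TSS, drawn to length at their distance in kb from the nearest TSS of the gene (right is downstream), with Sox genes above the dotted line and Fox genes below. Most strong Fox genes show 1 long Ring1B peak that begins at or just after the TSS, while Dzip3 peaks appear at Foxp1 and Foxi2 and an input peak at Sox6.

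Neighbouring Fox genes formed 3 clusters, noticed after the values were seen, in which each gene lay within 300 kb of the next. On chromosome 13, Foxq1, Foxf2 and Foxc1 spanned 248.5 kb and had 15 Ring1B peaks with 4644 Ring1B, 491 Dzip3, 572 ubH2A and 79 input reads. On chromosome 8, Foxf1, Foxc2 and Foxl1 spanned 43.6 kb and had 11 Ring1B peaks with 4205 Ring1B, 389 Dzip3, 511 ubH2A and 72 input reads. On chromosome 4, Foxd2 and Foxe3 lay 17.2 kb apart and had 7 Ring1B peaks with 2095 Ring1B, 267 Dzip3, 220 ubH2A and 42 input reads. All 8 genes of these clusters had a Ring1B peak, and together they held 33 of the 56 Fox peaks. Genes of a cluster share a stretch of chromosome and are not independent of each other in this count.

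None of the 99 Ring1B peaks overlapped a Dzip3, ubH2A or input peak, which allows a share of up to 3.74% by the Wilson interval. That limit takes the peaks as independent, but they lie at 28 genes, so it is too narrow. Of the 4808 Ring1B peaks at other protein-coding genes, 15.6% (interval 14.6% to 16.7%) overlapped a Dzip3 peak, 16.7% (15.7% to 17.8%) a ubH2A peak and 8.84% an input peak. These peaks held 6767345 input reads beside 2951947 Ring1B reads, so they include input-rich places that the set lacks. Reads of the Dzip3 and ubH2A libraries were nevertheless present in the Ring1B peaks of Sox and Fox genes above the input library. Whether this reflects Dzip3 binding and ubH2A, or a low input count at such places, was not tested. Over the 99 peaks together, 30292 Ring1B, 3034 Dzip3, 3576 ubH2A and 544 input reads were counted. Scaled to library size, the ratio to input was 52.0 for Ring1B (interval 47.7 to 56.7), 5.06 for Dzip3 (4.61 to 5.55) and 4.74 for ubH2A (4.33 to 5.19). The places were taken from the Ring1B list, so each Ring1B ratio rests on the reads that called the peaks and is a description. For Ring1B the ratio was 58.4 at Fox peaks (52.3 to 65.3) and 42.1 at Sox peaks (36.8 to 48.5). For Dzip3 it was 5.21 and 4.83, and for ubH2A 4.76 and 4.70, with overlapping intervals. The comparison with peaks of other genes used the 3808 that, like those of the set, overlap no peak of the other 3 lists. In these the ratio was 34.6 for Ring1B (34.1 to 35.2), 5.48 for Dzip3 (5.39 to 5.57) and 4.82 for ubH2A (4.74 to 4.90). The Ring1B ratio was therefore higher at Sox and Fox genes, and the Dzip3 and ubH2A ratios had overlapping intervals.

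Gene by gene, the ratio of Dzip3 to input over the Ring1B peaks ranged from 1.81 at Foxp2, with 4 Dzip3 and 2 input reads, to 29.5 at Sox8, where 2 input reads were counted. The median over the 27 genes with input reads was 5.23, and the lower limit of the interval was above 1 in 25 of them. For ubH2A the median was 5.00, from 2.25 at Foxc2 to 41.4 at Sox8, with the lower limit above 1 in 26. For Ring1B it was 51.4, from 27.8 at Sox1 to 186 at Foxe3. Like the Ring1B value at Sox3 below, this rests on the reads that called the peaks. At Sox3, 313 Ring1B, 42 Dzip3, 29 ubH2A and 0 input reads were counted in its 4 Ring1B peaks, and the lower limit of the ratio to input was 78.7 for Ring1B, 9.88 for Dzip3 and 5.31 for ubH2A. As a density, the median Ring1B peak of the set held 0.704 Dzip3, 0.752 ubH2A and 0.178 input reads per M per kb. The 3808 peaks of other genes held 1.12, 0.998 and 0.187, so the Dzip3 and ubH2A densities at Sox and Fox genes were the lower ones.

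**Figure D4:**
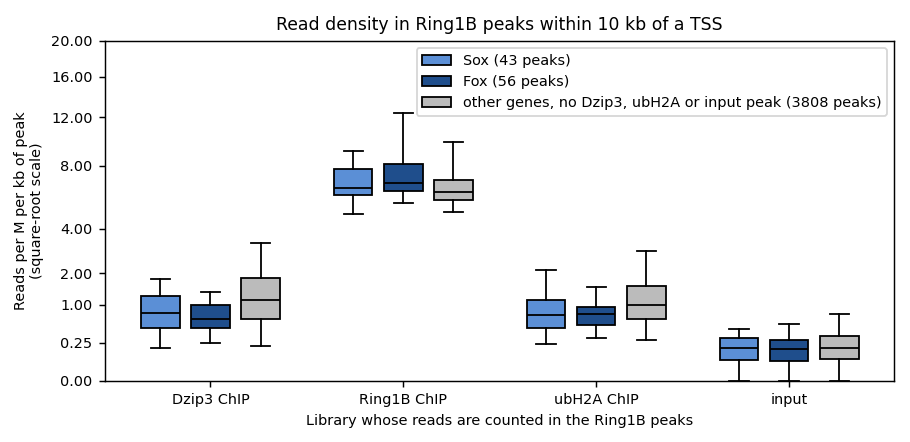
Reads per M per kb (square-root axis) of each library in the Ring1B peaks of Sox genes (43), Fox genes (56) and other genes without a Dzip3, ubH2A or input peak (3808). Boxes give the quartiles with the median and whiskers the 5th and 95th percentiles, and the median for Dzip3 is 0.801 at Sox, 0.661 at Fox and 1.12 at other genes.

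The Dzip3 peaks within 10 kb were found at Foxp1 and Foxi2, neither of which lay at a Ring1B peak. Foxp1 had peaks of both kinds within 10 kb, as did 3.24% of all protein-coding genes. Foxp1, a regulator of lymphoid, heart and brain development, is on the active list. Its Dzip3 peak lay in an intron, 7199 bp downstream of an internal TSS and far from the 5′ end of the gene. The peak held 76 Dzip3, 4 Ring1B, 9 ubH2A and 8 input reads. The scaled ratio to input was 8.61 for Dzip3 (interval 4.16 to 20.7) and 0.467 for Ring1B (0.103 to 1.74), and the place was taken from the Dzip3 list, so the Dzip3 ratio rests on the reads that called the peak and is a description. The peak at Foxi2, on the lineage list, was intergenic and lay 7922 bp upstream of the TSS. It held 68 Dzip3, 21 Ring1B, 21 ubH2A and 4 input reads, with a ratio to input of 15.4 for Dzip3 (5.75 to 58.2), which likewise rests on the reads that called the peak, 4.90 for Ring1B (1.65 to 19.6) and 3.78 for ubH2A (1.28 to 15.2). The nearest Ring1B peak was 698 kb away. The central 200 bases of the Foxp1 peak, chr6:98970749-98970948 in build NCBIM37, are shown to be set beside the Ring1B site at Foxb1, again on the strand of the gene (minus) with CpG in capitals.
Foxp1: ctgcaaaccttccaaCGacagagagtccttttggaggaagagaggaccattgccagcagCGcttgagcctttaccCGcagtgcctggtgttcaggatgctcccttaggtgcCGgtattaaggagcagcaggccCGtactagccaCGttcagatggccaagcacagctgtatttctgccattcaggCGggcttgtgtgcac
The Foxp1 stretch holds 7 CpG and is 56% G or C, with an observed over expected CpG of 0.447, lower than in the Foxb1 stretch. The input peak at Sox6 was intronic and lay 7435 bp from an internal TSS, away from the 5′ end and the Ring1B peaks of that gene. It held 37 input, 6 Dzip3, 1 Ring1B and 5 ubH2A reads.

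The 16 genes without a Ring1B peak within 10 kb included 9 of the active list. These were Sox12, Sox13 and Sox15 among the Sox genes, and Foxd3 (a factor of the pluripotent epiblast), Foxh1 (the Smad partner in Nodal signalling), Foxk1, Foxo1 and Foxo3 (targets of insulin signalling) and Foxp4 among the Fox genes. The 7 lineage genes were Sox5, Sox7, Sox21, Foxa3, Foxi2, Foxj1 (a regulator of motile cilia) and Foxn4 (retina and spinal cord). With the exception of Foxi2, no peak of any list was found within 10 kb of these, which makes 15 genes without a peak. The ubH2A and input lists could not be analysed at Sox13, Sox15, Foxo3 and Foxj1. The nearest Ring1B peak lay 12.3 kb away at Foxa3, 19.8 kb at Foxp4, 20.1 kb at Sox13, 20.4 kb at Foxn4, 33.5 kb at Foxo3 and 43.6 kb at Sox5. At Foxj1, Foxo1 and Sox21 it lay between 52.0 kb and 79.8 kb away. At Foxh1, Foxk1, Sox12, Foxd3, Sox15 and Sox7 it lay between 104 kb and 698 kb away. Thus a wider window reached several of these genes, but not Foxh1, Foxi2, Foxk1, Sox12, Foxd3, Sox15 or Sox7 at 100 kb.

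Just inside the limit of 10 kb were the Sox1 peak at 8967 bp, a Foxc1 peak at 9560 bp with 74 Ring1B reads, and the Foxc2 peak counted for Foxl1 at 9634 bp. Just outside were a Dzip3 peak 10882 bp from Sox5 with 71 Dzip3 reads, a Ring1B peak 11522 bp from Foxd1 with 134 Ring1B reads, and the Foxl1 peak 11634 bp from Foxc2 with 553 Ring1B reads. Within 100 kb, a Ring1B peak was found at 37 of 44 genes (84.1%), beside 50.3% of all protein-coding genes. A Dzip3 peak was found within this distance at 12 of 44 (27.3%), beside 36.4%, and a ubH2A peak at 16 of 39 (41.0%), beside 39.0%. By state, Dzip3 was found at 6 of 10 active and 6 of 34 lineage genes, and ubH2A at 4 of 7 and 12 of 32. The median distance to the nearest Dzip3 peak was 70.4 kb for active and 236 kb for lineage genes, while that to the nearest Ring1B peak was 81.9 kb and 0.104 kb. Among these Dzip3 peaks, 2 overlapped both a Ring1B and a ubH2A peak. The peak 60.9 kb downstream of the Foxo1 TSS held 88 Dzip3, 101 Ring1B, 127 ubH2A and 0 input reads. The peak 55.5 kb upstream of Foxa1 also overlapped an input peak, with 110 Dzip3, 186 Ring1B, 338 ubH2A and 236 input reads.

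The promoters of the set were rich in CpG whether or not Ring1B was found. From 250 bases before to 50 bases after the 5′ end of the gene, an observed over expected CpG of 0.6 or more was found in 32 of 44 genes (72.7%), beside 45.2% of 22375 protein-coding genes. The median was 0.669 in genes with a Ring1B peak, 0.736 in genes without one and 0.796 in active genes, beside 0.534 in all protein-coding genes. Among lineage genes with such a promoter, 21 had a Ring1B peak and 5 did not. Among active genes with such a promoter, 0 had a Ring1B peak and 6 did not, these being Sox12, Foxd3, Foxk1, Foxo1, Foxo3 and Foxp4. Of lineage genes below 0.6, 6 had a Ring1B peak (Sox9, Sox10, Sox17, Sox18, Foxa2 and Foxe3) and Sox5 and Foxi2 did not. Of active genes below 0.6, Foxp1 had a Ring1B peak and Sox13, Sox15 and Foxh1 did not. The Foxp1 peak lay by an internal TSS, away from the promoter measured. The promoter ratio does not describe the peaks. In the strongest Ring1B peak the ratio was 0.793 at Sox9, 0.777 at Sox17, 0.865 at Sox18, 0.602 at Foxa2 and 1.04 at Foxe3, but 0.372 at Sox10. Over all protein-coding genes, a Ring1B peak was found at 16.9% of those at or above 0.6 and at 12% of those below.

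**Figure D5:**
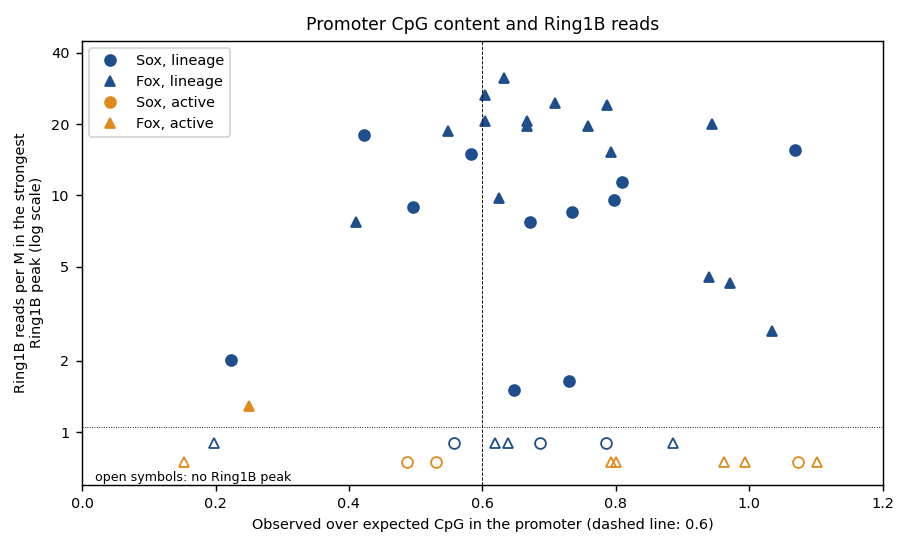
Observed over expected CpG of the promoter against Ring1B reads per M in the strongest Ring1B peak (log axis), for Sox (circles) and Fox (triangles) genes of the lineage list (blue) and the active list (orange). Open symbols below the dotted line mark genes without a Ring1B peak, and 6 active genes at or above 0.6 lie there.

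The pair Foxd3 and Foxd2, chosen after the values were seen, shows promoters of a like CpG number with and without Ring1B. Both genes are on chromosome 4 and belong to the FoxD group. The nearest Ring1B peak to Foxd3 was 275 kb away, whereas at Foxd2 a 1919 bp peak with 1015 Ring1B, 142 Dzip3, 60 ubH2A and 12 input reads spanned the TSS. The 200 bases before the 5′ end are given on the strand of the gene with CpG in capitals, chr4:99322790-99322989 (plus) for Foxd3 and chr4:114581504-114581703 (minus) for Foxd2, build NCBIM37.
Foxd3: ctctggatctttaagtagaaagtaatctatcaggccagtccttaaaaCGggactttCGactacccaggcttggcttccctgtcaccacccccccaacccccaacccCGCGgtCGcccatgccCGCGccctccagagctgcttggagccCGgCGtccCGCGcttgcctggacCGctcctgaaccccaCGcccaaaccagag
Foxd2: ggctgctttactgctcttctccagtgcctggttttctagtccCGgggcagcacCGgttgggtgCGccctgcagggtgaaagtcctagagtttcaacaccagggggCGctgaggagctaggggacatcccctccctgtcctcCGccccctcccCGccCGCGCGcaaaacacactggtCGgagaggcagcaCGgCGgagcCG
Each holds 13 CpG, with 62.5% G or C and an observed over expected CpG of 0.737 at Foxd3, and 66% and 0.598 at Foxd2. The core sequence of Fox sites, GTAAACA, was found on either strand in 2 of 44 promoters (4.55%), beside 3.11% of all. The core sequence of Sox sites, ACAAAG, was found in 6 of 44 (13.6%), beside 17.6%. Both shares were near those of all promoters.

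A short list of 18 genes, chosen as known partners or targets of Sox and Fox factors, gave a similar Ring1B share. Of these, 11 had a Ring1B peak within 10 kb (61.1%, interval 38.6% to 79.7%), again beside 14.2% of all protein-coding genes. Hnf4a, Mitf, Acan, Cdh5, Smad2, Smad3 and Smad4 had none. The share describes the genes chosen and not partners or targets at large. The most Ring1B reads in 1 peak were counted at Olig2, a factor of motor neurons and oligodendrocytes, with 2040 reads or 39.4 reads per M, above Foxb1. A Dzip3 peak was found at 1 of the 18, Mitf, a regulator of pigment cells, beside 6.37% of all protein-coding genes, and an input peak at 1, Smad4, a mediator of TGF-beta signalling.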

How the data were processed

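The authors aligned reads to mm9 with the Illumina Analysis Pipeline, allowing 1 mismatch, and called peaks library by library in the Partek Genomics Suite (FDR 0.1). The sample labels name a Picoruptor for fragmentation and the methods of the study name micrococcal nuclease. The deposited lists hold counts of reads of all 4 libraries in each peak, the peak height in extended reads and in RPM, a p-value against input DNA, and the percent of the peak covered by peaks of the other lists. The fold columns of the authors were not used.

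Library sizes were taken as height divided by RPM, and reads were divided by them. Intervals for shares are 95% Wilson intervals, and those for ratios to input come from exact binomial limits. A row without 18 columns was left out, 1 each in the ubH2A and input lists, and the regions hidden behind it, with 5 genes of the set for ubH2A and 7 for input, were not analysed. Overlaps came from the listed percentages everywhere. Only the alternatives with the stronger 50% of each list, or with at least 50% of the shorter peak covered, used positions. Those alternatives could not see an overlap with a ubH2A or input peak in the hidden regions. TSSs are those of protein-coding genes in GENCODE vM1 on NCBIM37. By symbol 41 of the 44 genes matched. Foxf1 was placed by its synonym, Foxl1 by an entry typed as pseudogene, and Sox1 by the only match of its RefSeq promoter sequence. Named genes were those with a Dzip3, ubH2A or input peak, the 5 Sox and 5 Fox genes with most Ring1B reads, the active genes and those without a peak. Other genes were named to account for every member. The genes, lists and rules were chosen with earlier results of these data known. Gene assignment was tested on simulated data, where all 150 planted peaks were found among 300 genes. Alternatives covered distance, TSS choice, nearest gene, stronger peaks, scaling and membership of the lists. Calculations used Python 3.11.15, numpy 2.4.6, pandas 2.3.3, scipy 1.17.1 and matplotlib 3.10.9. The sequences of some peaks are not reported here.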

Additional observations from a re-analysis of the deposited data

How the results depend on the processing

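Of the values recomputed under other settings, 72 stayed close to those reported and 24 moved, where close means inside the 95% Wilson interval for a share and within 1.5 times for other values. The count of genes with a Ring1B peak lay between 27 and 37 under the distance, TSS, nearest-gene and stronger-peak settings, and the lower value was without Foxp1. Within 4 kb of a TSS, 0 genes had a Dzip3 peak and 0 an input peak. Within 100 kb, Dzip3 peaks were found at 12 of 44 genes (27.3%, beside 36.4% of all protein-coding genes) and ubH2A peaks at 16 of 39 (41.0%, beside 39.0%). Input peaks were found at 6 of 37 (16.2%, beside 21.0%). The Ring1B share was 85.2% of Fox, 94.1% of lineage and 50% of active genes, beside 50.3% of all protein-coding genes. A longer distance can only add genes. With the 5′ end of the gene as the only TSS, Dzip3 was found at 1 gene, Foxi2, and input at 0. The Ring1B share of active genes was then 0%, and the median distance of the Ring1B peaks was 1609 bp. With each peak given to its nearest gene, Dzip3 was found at 1 gene. In the stronger 50% of each list, Dzip3 was found at 1 gene and input at 0, and the Ring1B share of active genes was 0%. The median of the strongest Ring1B peak, 19.6 reads per M in Fox, 14.9 in lineage and 1.29 in active genes, is by construction another quantity per kb (10.2, 8.56 and 5.83) or summed over all peaks of a gene (31.3 in Fox and 22.6 in lineage genes). The same holds for the median reads of the other libraries in the Ring1B peaks, 0.357 for Dzip3, 0.388 for ubH2A and 0.0828 for input, which per kb were 0.704, 0.752 and 0.178. With Sox12 and Sox13 moved to the lineage list, the Ring1B share was 12.5% of active and 75% of lineage genes, and with Sox4 and Sox11 moved to the active list it was 25% and 78.1%, so the active share rose from 10.0% by over 1.5 times but stayed inside its interval. Leaving out Sox1 and Foxl1, an alternative chosen after seeing the data, moved no share or median by over 1.5 times. Restricting other genes' Ring1B peaks to those without another peak was a choice made once the values were known. No paired analysis was possible because the 4 libraries carry no replicate numbers. A height below the lowest listed peak cannot be detected, which limits statements on Dzip3 and ubH2A to absence from the lists.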
